A study of Mus musculus with 12 samples.

Results

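Genes of the cardiac intercalated disc, 10 in number, were examined for peaks of the homeobox transcription factors Meis1 and Hoxb13 in mouse ventricle. They are the connexin genes Gja1, Gja5 and Gjc1, the adherens junction genes Cdh2 and Ctnna3, and the desmosome genes Dsp, Pkp2, Jup, Dsg2 and Dsc2. The members were taken by name, and every peak whose deposited gene symbol was one of these 10 was kept. This gave 48 of the 30534 peaks in the Meis1 list and 44 of the 22284 peaks in the Hoxb13 list, at 10 of the 21887 protein-coding genes of the reference table. Chromatin immunoprecipitation followed by sequencing had been run on ventricles at postnatal day 15. The protocol describes 3 hearts whose chromatin was divided between the antibodies, but the sample titles number the Meis1 libraries and inputs 1 to 3 and those of Hoxb13 4 to 6, so whether the lists share hearts is unclear. The strain was CD-1, which is outbred, and the labels name no genetic change or treatment. The 4 groups of 3 libraries were the Meis1 precipitate, the Hoxb13 precipitate and the input chromatin that goes with each. The deposited values are a single list of peaks for each factor, over its 3 libraries. No value per heart could therefore be given, no spread between hearts was available, and no test was run. Read depth is unknown, as no read counts accompany the peaks. Whole ventricle holds several cell types, and a peak list cannot tell in which of them a site was occupied. The cardiomyocyte genes Myh6, Myh7, Tnnt2, Actc1, Ttn and Ryr2 had peaks of both factors in 6 of 6 cases, against 23.9% of all protein-coding genes. This states only that these genes carry peaks and does not show which cell types were present.

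The intercalated disc joins cardiac muscle cells end to end. Its gap junctions, built from connexins, pass current from cell to cell. Its adherens junctions tie the actin of neighbouring cells together through cadherin and catenins, and its desmosomes do the same for the desmin filaments. Desmosomal genes are known in humans as the main disease genes of arrhythmogenic cardiomyopathy. Meis1 is a TALE homeobox protein known to recognise the word TGACAG, and Hoxb13 is a posterior Hox protein known to recognise AT-rich words such as CAATAAA and TCGTAAA.

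Promoter sequence is shown for the members in which a listed peak reached the 250 bases before an annotated start site, since these are the only stretches where the peaks can be read against letters here. RefSeq promoter windows (GRCm38.p6, the build of the peak lists) were found for 5 members, Gja1, Gja5, Ctnna3, Dsp and Jup, with 3 windows for Ctnna3 and 7 in all. Capitals mark bases inside a peak, and each sequence runs 5′ to 3′ on the strand of its gene. The first Ctnna3 sequence is chr10:63429848-63430097 on the plus strand and its capitals are the end of a Hoxb13 peak. The second is chr10:63457261-63457510 on the plus strand, upstream of an internal start site, and its capitals are the beginning of another Hoxb13 peak. The Jup sequence is chr11:100397791-100398040 on the minus strand and its capitals lie in a Meis1 peak.
Ctnna3, outer start site: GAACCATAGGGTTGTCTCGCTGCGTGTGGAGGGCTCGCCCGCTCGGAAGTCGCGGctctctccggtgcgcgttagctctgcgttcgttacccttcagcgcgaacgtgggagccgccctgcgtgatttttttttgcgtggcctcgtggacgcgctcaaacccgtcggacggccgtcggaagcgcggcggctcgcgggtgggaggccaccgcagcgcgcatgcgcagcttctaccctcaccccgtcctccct
Ctnna3, internal start site: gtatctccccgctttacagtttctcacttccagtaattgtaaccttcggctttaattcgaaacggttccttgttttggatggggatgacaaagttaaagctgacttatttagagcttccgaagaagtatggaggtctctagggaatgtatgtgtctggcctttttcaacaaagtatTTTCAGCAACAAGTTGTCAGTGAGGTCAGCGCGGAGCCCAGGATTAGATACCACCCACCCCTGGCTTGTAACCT
Jup: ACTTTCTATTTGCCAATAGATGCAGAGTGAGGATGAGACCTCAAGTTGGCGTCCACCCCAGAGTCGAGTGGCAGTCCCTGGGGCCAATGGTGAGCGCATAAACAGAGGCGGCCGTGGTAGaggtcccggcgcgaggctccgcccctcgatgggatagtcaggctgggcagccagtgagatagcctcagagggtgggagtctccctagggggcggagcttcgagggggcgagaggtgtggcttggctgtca

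The Hoxb13 peaks covered 55 bases at the outer Ctnna3 start site and the last 74 bases before the internal one, and the Meis1 peak covered 120 bases at Jup. The outer Ctnna3 window was rich in CpG, with 67.0% G and C and 39 CpG pairs in 300 bases, and the Jup window had 60.7% and 14 pairs. The internal Ctnna3 window, with 46.0% and 7 pairs, was below the median of all windows in the table in G and C content (52.7%) and equal to it in CpG pairs. The Dsp window, which no peak touched, was the most GC-rich of the 7, at 73.0%.

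No match of a searched word lay inside a peak, but little peak sequence could be searched. Within windows of 300 bases, peaks covered only 55 bases at the outer Ctnna3 start site, 124 at the internal one and 120 at Jup. Peak sequence outside the windows was not searched, so the absence of words inside peaks carries no conclusion. TGACAG, on either strand, occurred in 2 of the 7 windows and in 19.2% of all 32851 windows of the table. One of these matches stood 6 bases before the Jup start site, outside the Meis1 peak, and the other 172 bases before a further internal start site of Ctnna3. CAATAAA occurred in 0 of the 7 windows, against 1511 of all windows. TCGTAAA occurred in 1 of the 7, that of Gja1, against 0.597% of all windows, and began 36 bases after the start site, where no peak reached. The Jup and Gja1 matches are printed with the word in capitals, as it reads on the strand of the gene (the reverse complement of TGACAG and of TCGTAAA). The words do not overlap each other, a match is a description and not a site, and windows without a match say only that these letters are absent there.
Jup, chr11:100397783-100397806, minus strand: tgtggcttggCTGTCAggtccctt
Gja1, chr10:56377325-56377349, plus strand: aaaaaacgctTTTACGAggtatcag

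All 10 genes had at least 1 Meis1 peak and 8 had at least 1 Hoxb13 peak, the exceptions being Gja5 and Dsg2. Over all protein-coding genes, 38.2% had a Meis1 peak and 44.4% a Hoxb13 peak. Both factors had peaks at 8 members, against 23.9% of all genes. Peak number was uneven. Cdh2, Gja1 and Ctnna3 held 34 of the 48 Meis1 peaks, with 13, 11 and 10 peaks, and the other 7 genes had 1 to 3 each. For Hoxb13 the most peaks were at Gja1 with 13 and Cdh2 with 8, followed by Gjc1 and Pkp2 with 6 each.

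**Figure D1:**
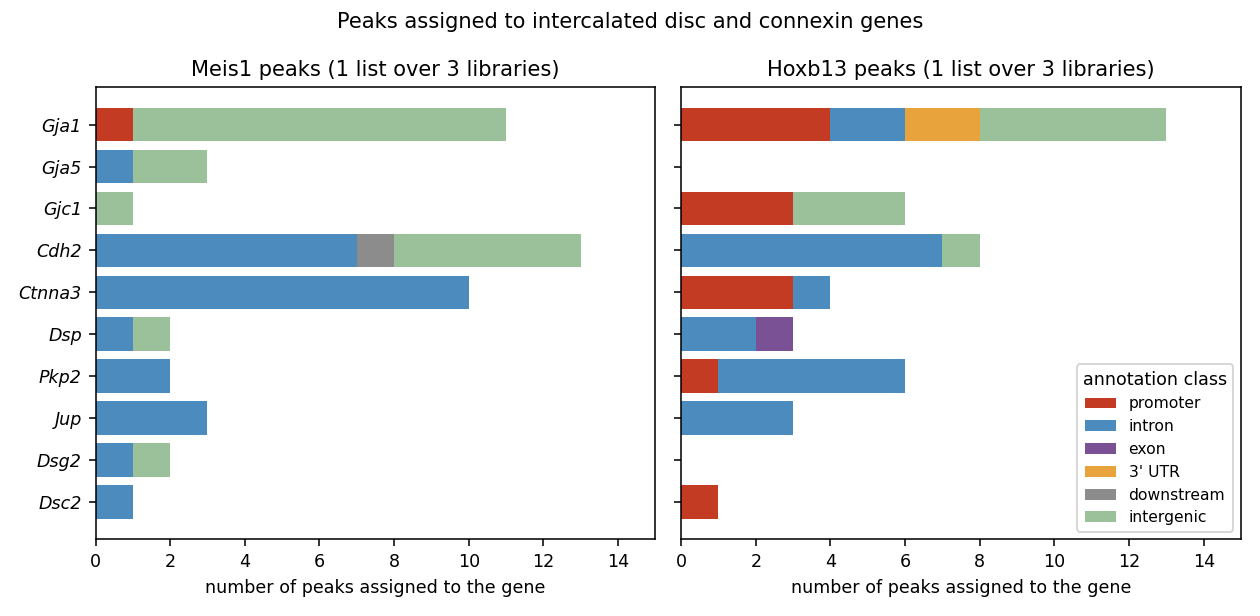
Number of peaks assigned to each member (horizontal axis), in the Meis1 list on the left and the Hoxb13 list on the right, coloured by annotation class; there are no error bars because each list was made over 3 libraries. Promoter peaks are at 1 gene in the Meis1 list and at 5 genes in the Hoxb13 list, and Gja5 and Dsg2 have no Hoxb13 peak.

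Gene length moves with these counts. Peaks were assigned to the gene with the nearest start site, even where they lay inside another gene, and longer genes received more of them. Among all protein-coding genes the share with a Meis1 peak was 22.2% in decile 1 of gene length (the shortest genes) and 79.4% in decile 10, and that with a Hoxb13 peak 10.7% and 68.5%. Of the members, 9 were longer than the median gene, and Cdh2 (220 kb) and Ctnna3 (1574 kb) were in decile 10. In the length decile of each member the share of genes with a Meis1 peak lay between 30.8% for Gja1 and 79.4% for Cdh2 and Ctnna3, and the share with a Hoxb13 peak between 43.1% and 68.5%. The share with peaks of both factors lay between 18.3% for Gja1 and 60.1% for Cdh2 and Ctnna3. The part of gene length in the members' counts was not tested.

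**Figure D2:**
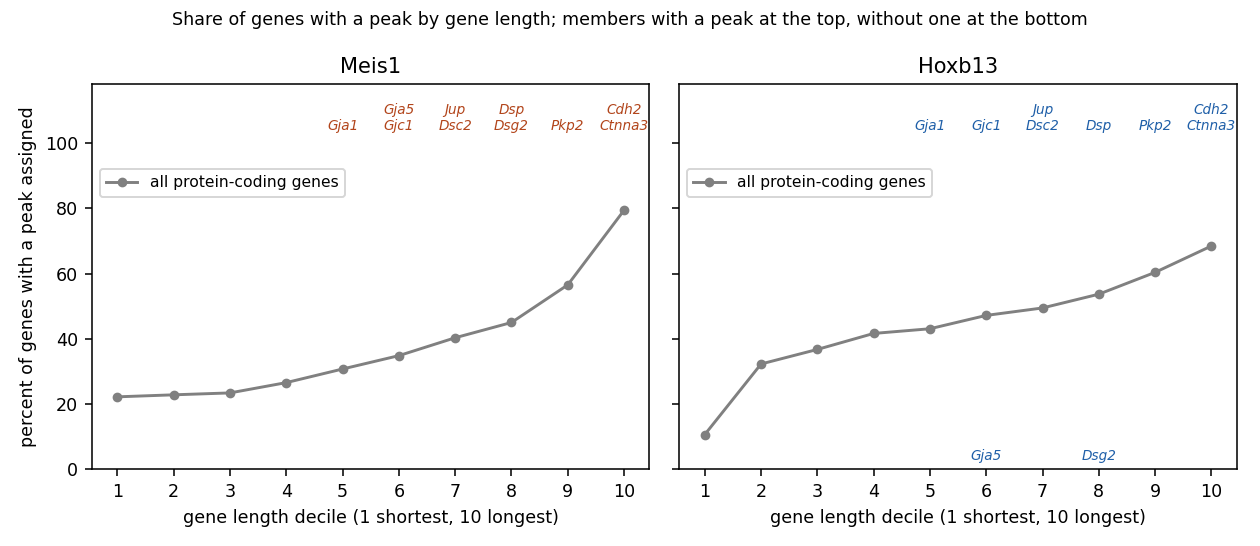
Percent of all protein-coding genes with a peak assigned (vertical axis) by decile of gene length (horizontal axis), Meis1 left and Hoxb13 right. Members are named in their own decile, at the top where they have a peak and at the bottom where they have none; the grey line climbs to 79.4% and 68.5% in decile 10.

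The factors differed in where their peaks lay. Of the 48 Meis1 peaks 26 (54.2%) were in introns, 20 (41.7%) were intergenic, 1 was just downstream of a gene and 1 (2.08%) was in a promoter. Of the 44 Hoxb13 peaks 20 (45.5%) were in introns, 12 (27.3%) in promoters, 9 (20.5%) intergenic, 2 in 3' UTRs and 1 in an exon. In the whole lists the promoter share was 6.73% for Meis1 and 40.3% for Hoxb13, and the intron share 33.4% and 23.4%. Both sets of member peaks thus had a lower promoter share and a higher intron share than their list. Long genes weigh in these shares. Of the intronic Meis1 peaks 10 were at Ctnna3 and 7 at Cdh2, and of the intronic Hoxb13 peaks 7 were at Cdh2. A promoter peak of Meis1 was present at 1 of the 10 members, Gja1, where 8.16% of all genes had one. A promoter peak of Hoxb13 was present at 5, namely Gja1, Gjc1, Ctnna3, Pkp2 and Dsc2, where 30.7% of all genes had one. The median member peak lay 70.3 kb from a start site for Meis1 and 10.4 kb for Hoxb13, against 58.2 kb and 4.55 kb in the whole lists.

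**Figure D3:**
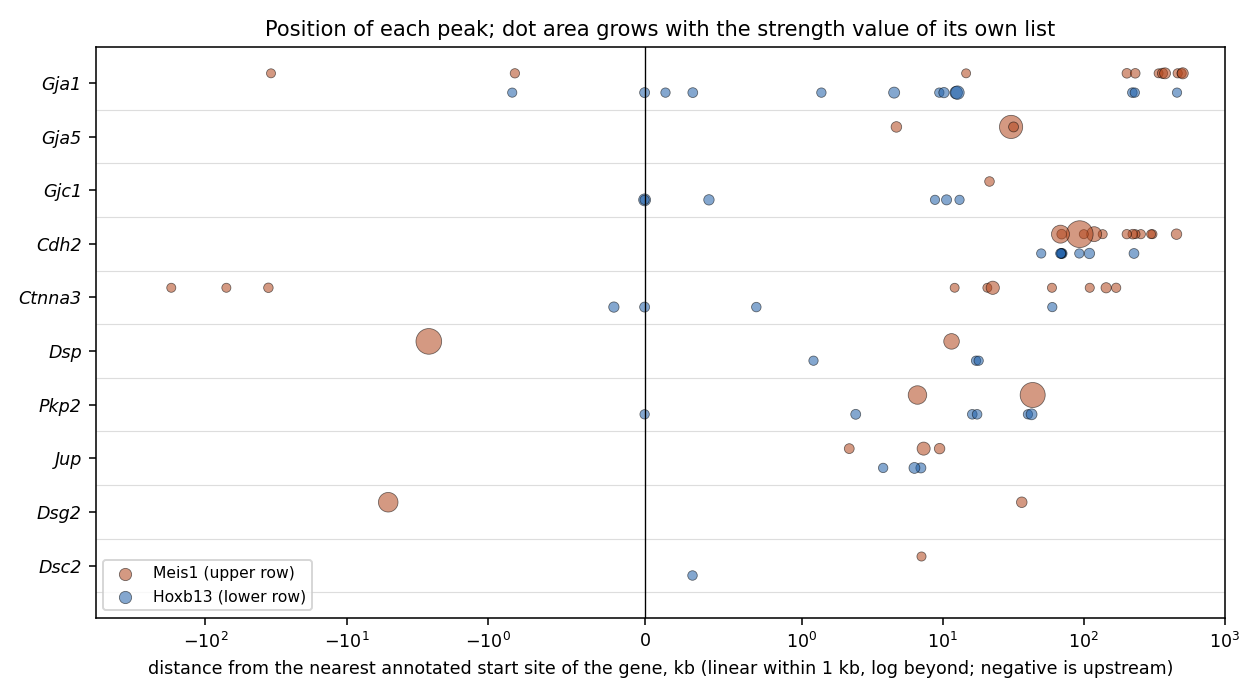
Distance of each peak from the nearest annotated start site of its gene in kb (horizontal axis, linear within 1 kb and logarithmic beyond, upstream to the left), 1 row pair per gene with Meis1 above Hoxb13. Dot area grows with the strength value within its own list, so the sizes of the 2 colours are not comparable; the largest Meis1 dots, at Cdh2, Dsp, Pkp2 and Gja5, lie off the start sites.

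Strength is the signal value that the authors deposited for each peak, used here only to rank peaks within a list. Ranks were uneven between the factors. A Meis1 peak among the strongest 5% of the list was present at 5 of the 10 members (Cdh2, Dsp, Pkp2, Gja5 and Dsg2), where 5.1% of all genes had one. A Hoxb13 peak among the strongest 5% was present at 1 member, Gja1, where 4.32% of all genes had one. Of the member peaks themselves 9 of 48 Meis1 peaks (18.8%) and 2 of 44 Hoxb13 peaks (4.55%) were in that part of their list. These 9 Meis1 peaks are also the ones with a width other than the 284 bp shared by the other 39, and in the whole list 1369 of the 1526 strongest peaks had another width. The part of peak width in the ranks was not tested. The threshold of 5% was chosen after the ranks had been seen. By decile of gene length, the share of all genes with such a Meis1 peak was 3.65% in decile 6 (Gja5) and 5.85% in decile 8 (Dsp and Dsg2). It was 8.68% in decile 9 (Pkp2) and 16.2% in decile 10, to which Cdh2 belongs and also Ctnna3, which had no such peak.

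**Figure D4:**
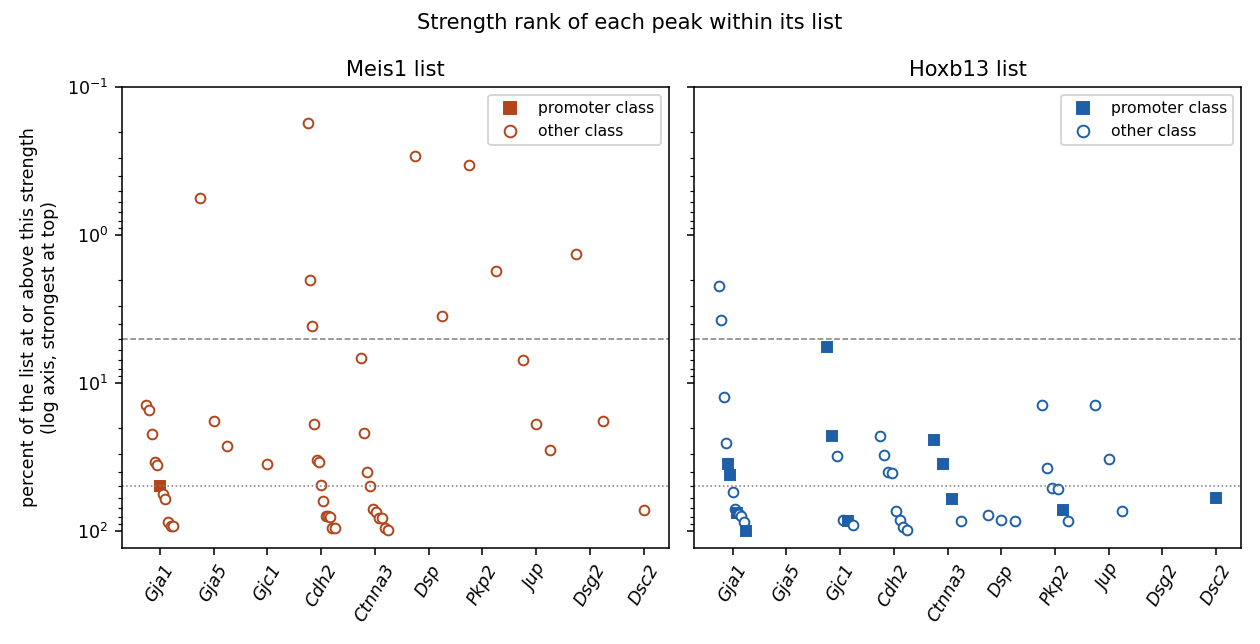
Percent of the list at or above the strength of each member peak (vertical axis, logarithmic, strongest at the top), by gene, Meis1 left and Hoxb13 right; filled squares are promoter peaks and open circles other classes. The dashed line marks the strongest 5% and the dotted line the stronger 50%; 9 Meis1 peaks at 5 genes and 2 Hoxb13 peaks at 1 gene lie above the dashed line.

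Gja1 encodes the main connexin of ventricular muscle, and it was the only member with promoter peaks of both factors. Its gene body on chromosome 10 (56377300 to 56390419, mm10) is short, at 13.1 kb, yet it had 11 Meis1 and 13 Hoxb13 peaks. Meis1 had 2 peaks within 15 kb of a start site, with strengths of 18.7 (the promoter peak, 0.827 kb from a start site) and 15.8, whereas Hoxb13 had 10 there, with strengths of 17.8 to 59.9. The Hoxb13 peaks near the gene formed a series, with 4 in the promoter class, 2 in the intron, 2 in the 3' UTR and 2 beyond the gene end. The promoter-class peaks were at 56376034 to 56376429 (strength 17.8), 56377852 to 56378247 (strength 22.8), 56378705 to 56379100 (strength 24.1) and 56379221 to 56379616 (strength 19.1). The strongest Hoxb13 peaks of all members were the pair beyond the gene end, which overlap each other, at 56391545 to 56391940 (strength 49.0, rank 840) and 56391813 to 56392208 (strength 59.9, rank 495). No Meis1 peak lay inside the gene body, where Hoxb13 had 7, or 53.4 per 100 kb against 1.44 per 100 kb over all protein-coding gene bodies. A Hoxb13 density above 1.44 was not particular to Gja1. Per 100 kb of gene body, Jup had 17.3, Gjc1 14.8, Pkp2 10.1, Dsp 6.34, Dsc2 3.46 and Cdh2 3.18. Ctnna3 had 0.254, and Gja5 and Dsg2 had 0. The value of 1.44 is an average over all bases of gene bodies, in which long genes weigh most. A short gene exceeds it with 1 peak, as Dsc2 did with 1 peak in 28.9 kb. Densities for genes of like length were not computed, so these values do not show an excess at the members.

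The other Gja1 peaks were far from the gene. Meis1 had 8 peaks from 202 to 501 kb past a start site, with strengths of 15.9 to 34.7, and 1 at 34.3 kb upstream. The strongest was also the farthest, at 56880382 to 56880665 (rank 4268). Hoxb13 had 3 peaks from 220 to 457 kb, with strengths of 18.3 to 21.0. The next protein-coding gene on this side, Hsf2, begins 1093 kb after the end of Gja1, so the assignment to Gja1 rests on proximity alone.

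Gja5 and Gjc1, the other connexin genes, each had more peaks of a different factor. Gja5 encodes a connexin of atrial muscle and of the ventricular conduction system. It had 3 Meis1 peaks and 0 Hoxb13 peaks, and the nearest Hoxb13 peak to its start site was 195 kb away and assigned to Bcl9. Its strongest Meis1 peak, on chromosome 3 from 97062903 to 97063249, had a strength of 217 and rank 171, and lay 30.5 kb from the start site, past the end of the 21.2 kb gene. A second peak 31.8 kb from the start site had a strength of 23.6, and the peak in intron 1 had 29.4. Gjc1, a connexin gene of early heart and conduction tissue, had 1 Meis1 peak of strength 21.0 past its end (102783545 to 102783828), 21.2 kb from a start site, and 6 Hoxb13 peaks. Of these 3 were in the promoter class, on chromosome 11, at 102819138 to 102819533 (strength 43.1, rank 1272), 102818354 to 102818749 (strength 27.9) and 102819338 to 102819733 (strength 18.4). The first and the last overlap each other. The 3 intergenic Hoxb13 peaks, 8.82 to 13.2 kb from a start site, had strengths of 18.2 to 25.1.

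Cdh2 encodes N-cadherin, the cadherin of the cardiac adherens junction. It held the strongest Meis1 peak of all members, in intron 2 on chromosome 18 from 16715519 to 16715843, with a strength of 298 and rank 53, 93.4 kb from the start site. Intron 2 held 6 of its 13 Meis1 peaks and 7 of its 8 Hoxb13 peaks. In that intron Meis1 strengths ran from 16.5 to 298 and Hoxb13 strengths from 17.9 to 27.9. A further 2 Meis1 peaks in this intron were among the strongest 5%, with strengths of 123 (rank 613) and 78.8 (rank 1250). Cdh2 had no promoter peak of either factor, and the Hoxb13 peak nearest to its start site was 49.9 kb away. The nearest Meis1 peak, 17.4 kb away with a strength of 19.2, was assigned to Gm15328 and so is not among the Cdh2 peaks. Past the gene end Meis1 had 6 weaker peaks, 222 to 453 kb from the start site, with strengths of 15.7 to 28.8, and Hoxb13 had 1 of strength 22.96.

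Both factors were close together in a short part of this intron. From 68.2 to 70.003 kb from the start site lay 2 Meis1 peaks and 4 Hoxb13 peaks. The weaker Meis1 peak (16739357 to 16739640, strength 21.2) overlapped a Hoxb13 peak (16739438 to 16739833, strength 19.2) by 203 bp, with summits 137 bp apart. The stronger one (16740844 to 16740997, strength 123) had a Hoxb13 peak 7 bp from its edge. The strongest Meis1 peak of the gene had a Hoxb13 peak of strength 18.5 at 184 bp.

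Ctnna3 encodes alpha-T-catenin, a catenin of heart and testis that links adherens and desmosomal proteins. All of its 10 Meis1 peaks were intronic, 5 of them in intron 5, with strengths of 15.7 to 57.1. The strongest lay in intron 1 (63480138 to 63480421, rank 2057). Hoxb13 had 3 of its 4 peaks in the promoter class, at the start sites shown above, with strengths of 27.2 (63429507 to 63429902), 24.0 (63457437 to 63457832) and 20.2 (63458223 to 63458618). The fourth Hoxb13 peak, in intron 7 (strength 18.4), was 32 bp from a Meis1 peak of strength 16.7. Another 12 Meis1 peaks and 1 Hoxb13 peak lay inside the Ctnna3 gene body but had been assigned to Lrrtm3, a neuronal adhesion gene nested within it. Counted by position, the gene body held 22 Meis1 peaks, or 1.40 per 100 kb, close to the 1.22 per 100 kb over all protein-coding gene bodies. Of Hoxb13, 4 peaks lay in the gene body, counting the 1 at Lrrtm3 and leaving out the peak before the outer start site, or 0.254 per 100 kb against 1.44.

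The desmosome genes had few Meis1 peaks, but several of these were strong. Dsp encodes desmoplakin, which links the desmosome to desmin. Its Meis1 peak 2.62 kb upstream of the start site, on chromosome 13 from 38148395 to 38148679, had a strength of 271 and rank 89, and another in intron 1 (38162847 to 38162947) had 87.2 and rank 1069. Its 3 Hoxb13 peaks were weak, at 18.4, 18.5 and 18.9, with ranks of 17468 to 18973 of 22284, in introns 1 and 4 and in exon 4. The nearest peaks of the factors at Dsp were therefore apart, with no pair within 1 kb.

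Pkp2 encodes plakophilin-2, an armadillo protein of the desmosomal plaque. Its 2 Meis1 peaks, on chromosome 16, had strengths of 257 (intron 6, 16256738 to 16256986, rank 102) and 131 (intron 1, 16219973 to 16220151, rank 531). Hoxb13 had 6 peaks there, 1 on the start site (16213248 to 16213643, strength 19.2) and 5 in introns, with strengths of 18.4 to 32.4. The strongest Hoxb13 peak, at 16255955 to 16256350, lay in the same intron as the strongest Meis1 peak, 388 bp from it.

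Jup encodes plakoglobin, a catenin found in both desmosomes and adherens junctions. It had 3 Meis1 peaks and 3 Hoxb13 peaks, and all 6 were in intron 1. The strongest Meis1 peak (chromosome 11, 100390178 to 100390461, strength 55.5, rank 2141) overlapped a Hoxb13 peak (100390388 to 100390783, strength 24.6) by 74 bp, with summits 266 bp apart. The other Meis1 peaks had strengths of 28.8 and 22.97, and the other Hoxb13 peaks 32.5 and 19.2. The Meis1 peak on the Jup sequence shown above (100397921 to 100398204, strength 19.9) was assigned to Gm12348, a predicted gene on the other side of this start site, and so is not among the 48. By position alone 2 members, Gja1 and Jup, had a Meis1 peak within 1 kb of the outermost RefSeq start, and 5 had a Hoxb13 peak there. The share of all genes under this rule was not computed, so these counts say nothing particular about the members. Inside the Jup gene body 2 more Hoxb13 peaks, of strengths 33.01 and 20.9, were assigned to the neighbouring gene Hap1.

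Dsg2 and Dsc2 encode the desmosomal cadherins of heart muscle, desmoglein-2 and desmocollin-2, and stand in a cluster of 9 such genes over 644 kb of chromosome 18. Dsg2 had a strong Meis1 peak 5.07 kb upstream (20552826 to 20553005, strength 149, rank 408), a second in intron 12 (strength 29.5) and 0 Hoxb13 peaks. The nearest Hoxb13 peak to its start site was 121 kb away and assigned to Ttr. Dsc2 had 1 weak Meis1 peak in intron 1 (20052264 to 20052547, strength 16.9, rank 22017 of 30534) and 1 Hoxb13 peak in the promoter class, 301 bp from the start site (20058858 to 20059253, strength 20.3). The cluster with 10 kb on both sides held 6 Meis1 and 4 Hoxb13 peaks in all.

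Pairs of a Meis1 and a Hoxb13 peak at the same place were few. An overlap of at least 1 bp was found at 3 members, Gja1, Cdh2 and Jup, with 1 pair each, where 5.89% of all genes had one. By peak the shares were close to those of the lists. For Meis1, 3 of 48 member peaks (6.25%) overlapped a Hoxb13 peak, against 5.54% of the whole list. For Hoxb13 it was 3 of 44 (6.82%), against 7.93%. At Gja1 the promoter peaks (Meis1 56376163 to 56376446, strength 18.7; Hoxb13 56376034 to 56376429, strength 17.8) overlapped by 267 bp with summits 73 bp apart. That Hoxb13 peak, ranked 22279 of 22284, was one of the weakest of its list. Within 1 kb of each other, edge to edge, lay 12 pairs at 5 genes, which are the same 3 with Ctnna3 and Pkp2. Of the Meis1 member peaks 7 of 48 (14.6%) had a Hoxb13 peak within 1 kb, against 9.93% of the whole list, and of the Hoxb13 member peaks 10 of 44 (22.7%) had a Meis1 peak within 1 kb, against 15.4%. Among these are the 2 Meis1 and 4 Hoxb13 peaks of the short stretch in intron 2 of Cdh2. A single locus thus weighs in both shares.

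**Figure D5:**
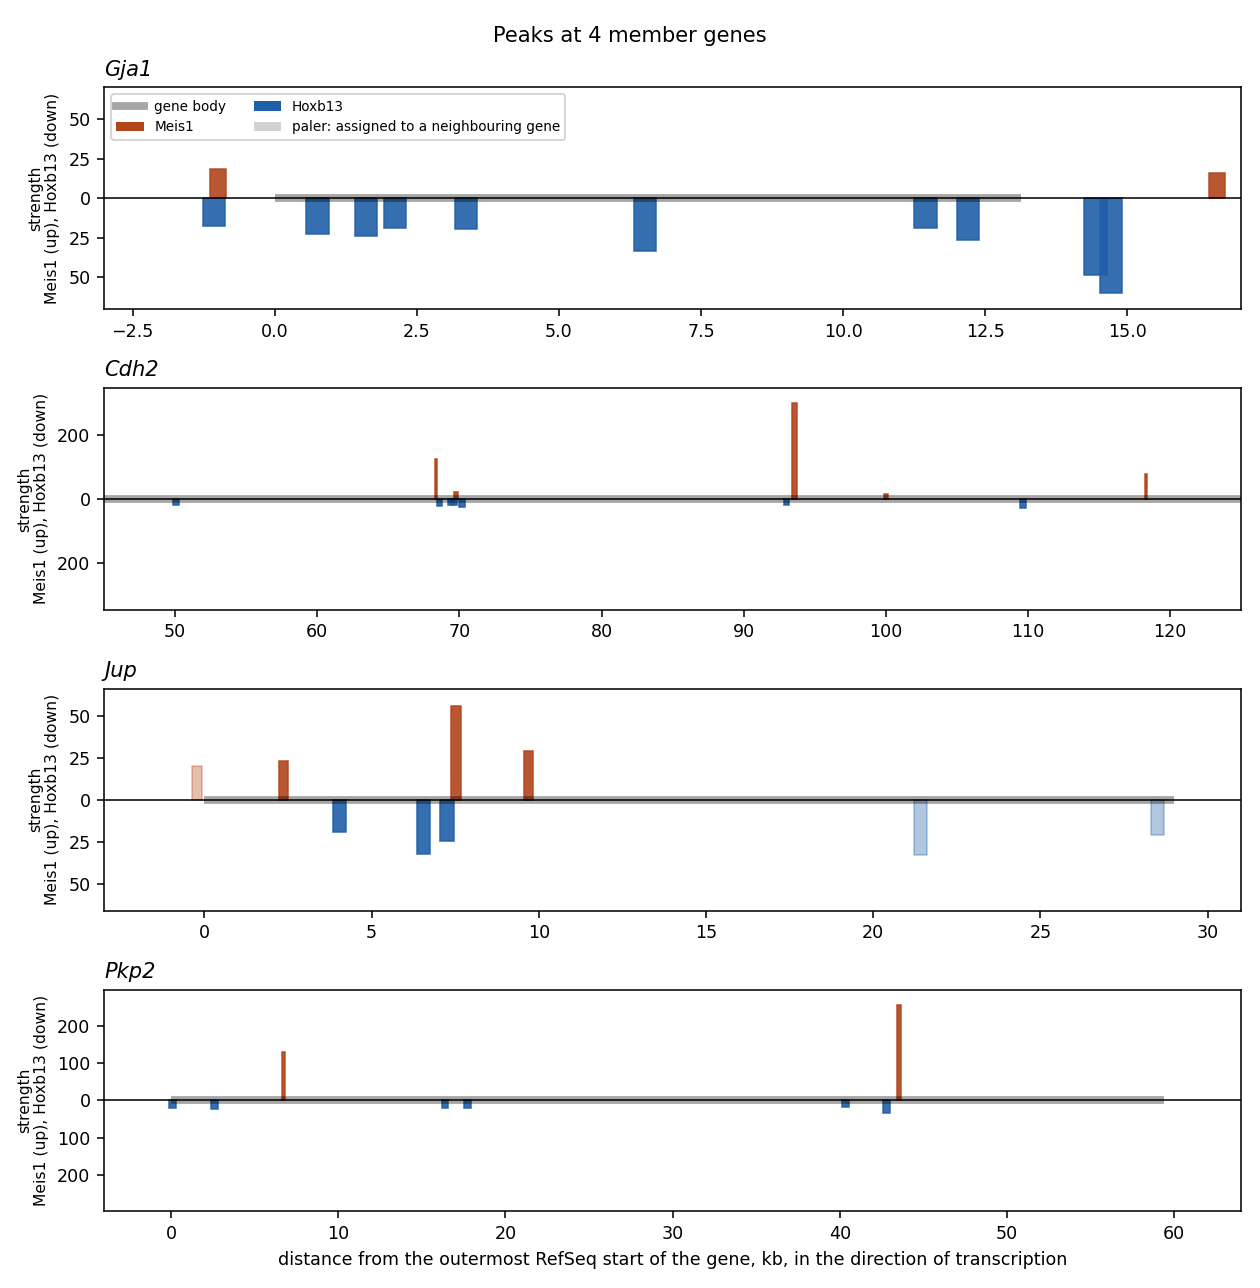
Peaks of Meis1 (upward) and Hoxb13 (downward) at Gja1, Cdh2 (part of intron 2), Jup and Pkp2, drawn to scale by distance from the outermost RefSeq start in kb (horizontal axis), with the strength value of each list as height. Both directions share an axis, but strengths of the 2 lists are not comparable; paler bars are peaks assigned to a neighbouring gene, and the grey bar is the gene body. The promoter pair of Gja1, the pairs in intron 2 of Cdh2 and the pair in intron 1 of Jup are seen on both sides of the axis.

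Other genes of the same structures were counted from 2 further lists. Connexin genes other than the members numbered 17, of which 4 had a Meis1 peak and 5 a Hoxb13 peak, 11 had neither, and 0 had an overlapping pair. Over all protein-coding genes 38.2% had a Meis1 peak, 44.4% a Hoxb13 peak and 5.89% an overlapping pair. The strongest Meis1 peak over both lists was at the connexin gene Gjd3 (strength 333, rank 29, 2.62 kb upstream), where a Hoxb13 peak had a strength of 26.4. Of 22 other disc and junction genes 14 had a Meis1 peak, 17 a Hoxb13 peak and 13 both, against 38.2%, 44.4% and 23.9% of all genes. Gene length was not taken into account for these 2 lists. After Gjd3, the strongest Meis1 peaks were at Ctnna1, the alpha-E-catenin gene (158), and Vcl, the vinculin gene (96.0). The strongest Hoxb13 peaks over both lists were at Plec, the plectin gene (46.3), Tjp1, the gene of a junctional scaffold protein (41.8), and Afdn, the afadin gene (37.3). Among them, overlapping pairs were found in the promoter of Des, the desmin gene, and in an intron at Ctnna1. Promoter peaks were present at 1 of these 22 genes for Meis1 and at 11 for Hoxb13, where 8.16% and 30.7% of all genes had one.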

How the data were processed

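Per the labels' protocols, ventricles of 3 hearts at postnatal day 15 were crosslinked and sonicated, 1% of the chromatin was kept as input and the rest was divided between the antibodies to Meis1 and Hoxb13. The submitters' processing notes name Bowtie2 2.2.3, Picard, ChIPseeker, deepTools 1.6 and the mm10 build, without roles. How peaks were called, at what threshold and over which merged reads is not given in the sources used here. Both deposited tables give, per peak, a position and width in bp and other annotation, and a signal value, which per the file headers has only a column number and is called strength here.

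Members were matched by symbol, with the same rows found by Entrez number. Gene bodies, lengths and promoter windows came from RefSeq tables of GRCm38.p6, with mitochondrial genes left out. Overlap code was tested on simulated data. Computations used python 3.11.15, pandas 2.3.3 and numpy 2.4.6. The lists were described without tests, since neither holds values per library, and input libraries entered no comparison. The members, lists and words searched were chosen with earlier results of these data known. All members are described in full; from the 2 further lists as a whole, genes with an overlapping pair and the 3 with the strongest peak of each factor are named, except for a gene that is not reported here. Alternatives were strength and distance limits, gene-body assignment, promoter width and overlap rules.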

Additional observations from a re-analysis of the deposited data

How the results depend on the processing

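For the limits in this section no share over all genes was computed. The counts therefore show only how the members' numbers moved, not whether they stayed above those of other genes. All 10 members kept a Meis1 peak with only as many of the strongest peaks as the Hoxb13 list holds, and 7 to 9 had one under the other limits tried. Members with a Hoxb13 peak numbered 6 to 8, except in the strongest 10% of the list, chosen after the data were seen, where 2 remained (Gja1 and Gjc1). Peaks of both factors within 10 kb of a start site were present at 5 members. In the stronger 50% of each list there were 30 Meis1 and 19 Hoxb13 peaks at members, and within 10 kb of a start site 9 and 21. Within 3 kb of a start site 3 members had a Meis1 peak (Gja1, Dsp and Jup), against 1 by the promoter class. For Hoxb13 there were 6 members within 3 kb, against 5 by the promoter class. A Hoxb13 promoter peak in the stronger 50% was present at 3 members (Gja1, Gjc1 and Ctnna3). Members with a shared site numbered 1 with summits within 100 bp (Gja1), 1 in the stronger 50% of both lists (Jup), 5 within 1 kb and 2 with a reciprocal overlap of at least 50%. By gene body with 10 kb on both sides there were 47 Meis1 and 49 Hoxb13 peaks. No paired analysis was possible because each list was deposited as 1 table over 3 libraries, and for the same reason no library could be left out in turn. Depth is unknown, so a gene without a peak had none above the authors' threshold, which does not show that the factor was absent.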
